A study of Mus musculus with 4 samples.

Results

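Ephrins and Eph receptors of crypt and villus sorting were followed in mouse small intestine on postnatal day 8, as the 9 genes Ephb2, Ephb3, Ephb4, Ephb6, Epha1, Epha2, Efna1, Efnb1 and Efnb2. They were chosen by gene name from the 29011 genes of the deposited table, and all 9 had a row. The control group has 2 libraries from mice that the design text calls Cre-free carriers of floxed Lats1/2 alleles, whereas the genotype entry of these samples names Lats1/2 as deleted and VilCre as absent. The Lats1/2 KO group has 2 libraries from VilCre-positive mice labelled as lacking both genes. Engineered Lats1/2 alleles are thus common to both groups, and VilCre is confined to the Lats1/2 KO group. Lats1 counts, given below, were lower in the knockouts than in the controls. VilCre is a Cre recombinase driven by the Villin promoter, which is active in the intestinal epithelium and not in stroma, vessels or blood cells. Total RNA came from whole tissue, in which fewer cells of a type and less RNA per cell cannot be told apart.

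Eph receptors are receptor tyrosine kinases that bind ephrins on the surface of neighbouring cells, so signals pass in both directions at a cell contact. Ephrin-A ligands are held in the membrane by a lipid anchor and mostly bind EphA receptors, while ephrin-B ligands cross the membrane and mostly bind EphB receptors. In the mouse intestine EphB2 and EphB3 are made in the crypts under Wnt and beta-catenin control, ephrin-B1 and ephrin-B2 are made mainly towards the villus, and the repulsion between them keeps crypt and villus cells sorted. EphB3 also helps to hold Paneth cells at the crypt base. Outside the epithelium, ephrin-B2 marks arteries and EphB4 marks veins.

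Of the 9 genes, 4 were higher in the knockouts (Epha2, Efnb2, Epha1 and Ephb6), 2 were lower (Ephb2 and Ephb3) and 3 did not pass the test (Ephb4, Efna1 and Efnb1). A gene was called when its adjusted p was below 0.05 by limma, a linear model fitted to log2(normalized count + 1) over 16415 genes, with Benjamini-Hochberg adjustment over all of them. A normalized count is the number of reads of a gene divided by a factor for the depth of its library. Over all tested genes 27.5% were called, 15.2% as higher and 12.3% as lower. That share was 27.8% with edgeR and 23.6% with DESeq2, both on recovered reads, and 10.5% with no filter and 33.2% with a filter of 50 normalized counts. It was 23.2% and 23.7% without control replicate 1 or 2, and 13.7% and 13.1% without Lats1/2 KO replicate 1 or 2. The median log2 change was 0.44 over the 9 genes and -0.001 over all tested genes. In each of the 9 genes the libraries of the groups did not overlap, as in 68.3% of all tested genes. In the authors' deposited table, where 23% of the genes with an adjusted p were below 0.05, 5 of the 9 genes were: Ephb2, Ephb3, Epha1, Epha2 and Efnb2.

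**Figure D1:**
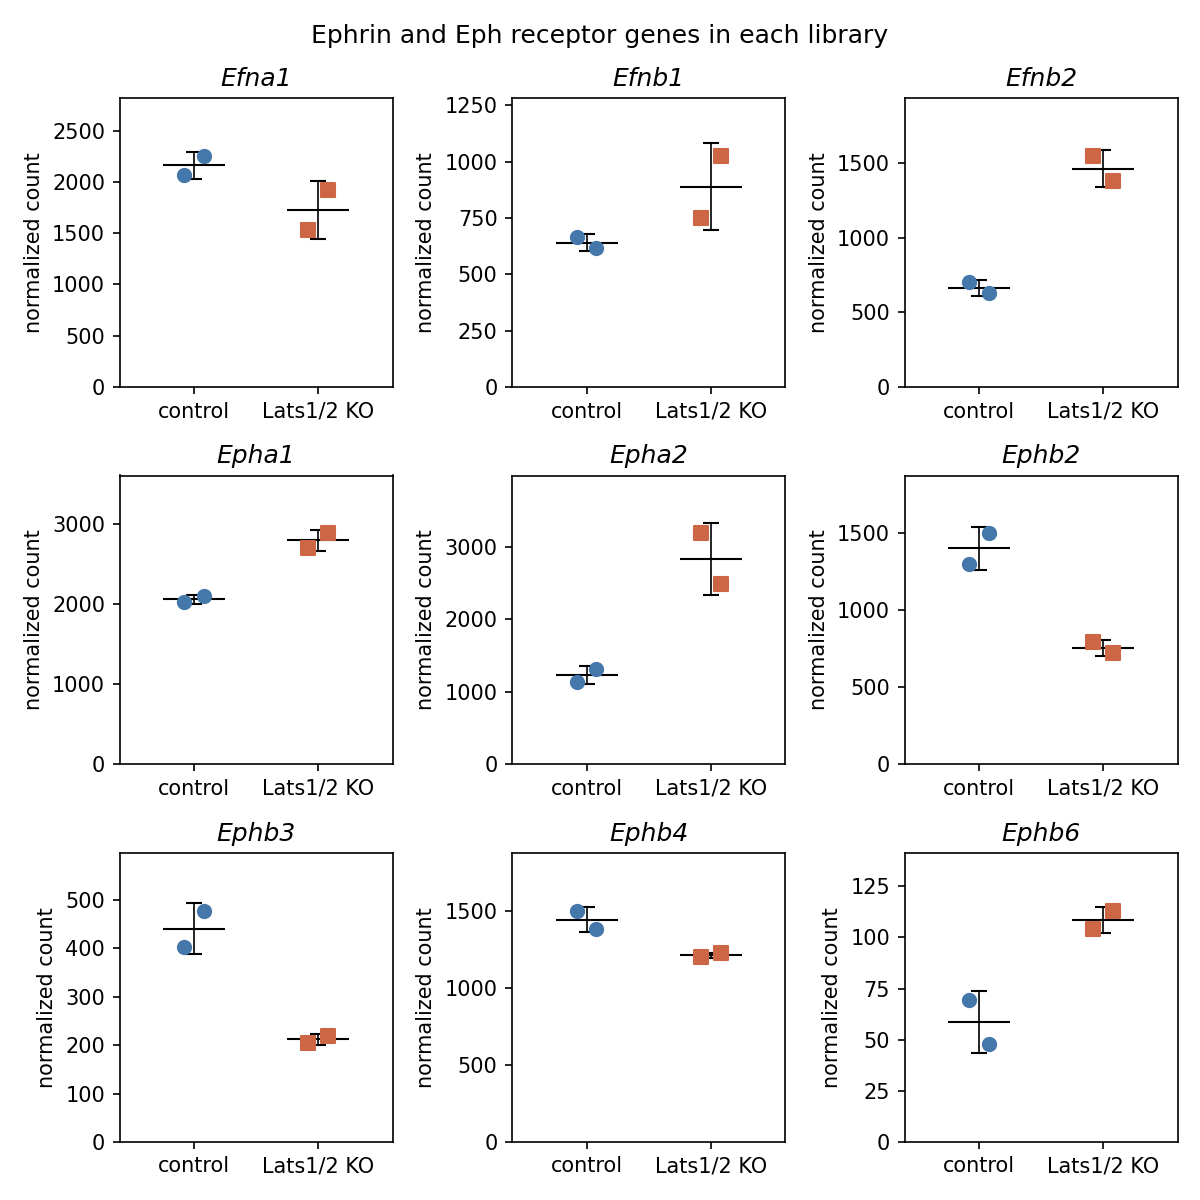
Normalized count (linear axis from 0) of each of the 9 genes in the 2 control libraries (circles) and the 2 Lats1/2 KO libraries (squares); lines and bars give the mean and SD of each group. Ephb2 and Ephb3 lie lower and Efnb2 and Epha2 higher in both Lats1/2 KO libraries, and the Lats1/2 KO libraries stand farthest apart in Epha2, Efna1 and Efnb1.

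The recovered depth was 25135964 to 32361940 reads per library. Lats1, a gene the Cre was meant to delete, had 2316 and 2560 normalized counts in the controls and 751 and 661 in the knockouts, while Lats2 had 273 and 287 against 295 and 254. The counts cover whole genes and not the deleted part alone. Among 18 general epithelial markers 6 rose and 2 fell, with a summed level of 9024 to 9648 RPM (reads per 1000000 reads of the library) in the controls against 11590 to 12060 in the knockouts. Their median log2 change was 0.09, and those with the smallest adjusted p were the keratins Krt18, Krt8 and Krt20. Krt8 had 542 and 542 RPM in the controls against 1340 and 1400, and Krt18 297 and 304 against 827 and 897. The 10 markers that did not pass summed to 7900 and 7360 RPM in the controls and 8360 and 7870 in the knockouts. Of 10 mesenchyme markers 5 fell (735 to 788 against 569 to 661 RPM), and of 10 blood endothelium markers 1 fell (199.8 to 236.5 against 170.5 to 188.8). Of 6 markers of macrophages and other myeloid cells 3 fell and 0 rose (470 to 476 against 268 to 352 RPM). These were Lyz2, Adgre1 and Cx3cr1, with log2 changes of -1.42, -1.39 and -1.01. No defining marker of these lists was at 0. The part of these shifts in the results below was not tested.

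The epithelial EphB receptors Ephb2 and Ephb3 fell together. Ephb2 (ENSMUSG00000028664, chromosome 4, 136647539 to 136835988, minus strand of GRCm38) encodes a receptor of crypt stem and progenitor cells. It had 1304 and 1501 normalized counts in the controls and 792 and 721 in the knockouts. Each Lats1/2 KO library lay well below each control library. The group means were 1402 ± 139 and 757 ± 50.1 (SD, n = 2 each), a 1.85-fold fall with a log2 change of -0.89 ± 0.10 (SE) and an adjusted p of 0.00342 by limma.

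Ephb3 (ENSMUSG00000005958, chromosome 16, 21204755 to 21223305, plus strand) encodes the second crypt receptor, which Paneth cells carry. Its normalized counts were 404 and 478 in the controls and 204 and 220 in the knockouts. The controls differed from each other more than the Lats1/2 KO libraries did, and the groups stayed apart. The means were 441 ± 52.4 and 212 ± 12 (SD, n = 2 each), a 2.07-fold fall (log2 change -1.05 ± 0.13 SE, adjusted p = 0.00438 by limma). The calls of Ephb2 and Ephb3 held under each of the 12 other settings run, with adjusted p of at most 0.0202 and 0.0247.

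The log2 ratio of Ephb2 to Ephb3 within a library was 1.69 and 1.65 in the controls and 1.95 and 1.70 in the knockouts, so the mean difference of 0.16 was close to the pooled SD between replicates of 0.13. Without 1 library the difference ranged from 0.04 to 0.29. Ratios are given as values with no test.

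Ephb4 and Ephb6, the other EphB receptors among the 9 genes, took different courses. Ephb4 (ENSMUSG00000029710, chromosome 5, 137350109 to 137378669, plus strand), the venous receptor that also occurs in epithelia, had 1500 and 1385 normalized counts in the controls and 1200 and 1223 in the knockouts. The means were 1443 ± 81.0 and 1211 ± 16.0 (SD, n = 2 each). The log2 change was -0.25, its 95% interval ran from -0.43 to -0.07, and limma gave an adjusted p of 0.055. It passed the threshold with edgeR on recovered reads (adjusted p = 0.0471), with a filter of 50 normalized counts (0.0496) and without control replicate 2 (0.0416). Of 5 tested markers of venous and lymphatic endothelium 2 fell and 0 rose. The 6 listed summed to 58.8 to 61.5 RPM in the controls against 46.0 to 59.5. The 2 that fell were Prox1 and Lyve1, listed for lymphatic endothelium, with log2 changes of -0.94 and -0.54. The Lyve1 call was lost with no filter (adjusted p = 0.0743 by limma). It was also lost without control replicate 1 or 2 and without Lats1/2 KO replicate 2. The tested genes that did not pass lay between -0.09 and 0.10. Without Prox1 and Lyve1 the list summed to 40.9 and 38.9 RPM in the controls and 44.9 and 34.3 in the knockouts. The part of venous cells in the Ephb4 values was not tested. The exons of Ephb4 share 33 bases with those of Zan on the opposite strand in the GENCODE annotation. Zan had 118 and 142 recovered reads in the controls and 524 and 465 in the knockouts. The part of that stretch in the Ephb4 difference was not tested.

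Ephb6 (ENSMUSG00000029869, chromosome 6, 41605482 to 41620509, plus strand) encodes a receptor without kinase activity. It was the least abundant of the 9 genes, also per exon length, with 69.4 and 48.0 normalized counts in the controls and 104 and 113 in the knockouts, from 42 to 125 recovered reads. The means of 58.7 ± 15.1 and 108 ± 6.59 (SD, n = 2 each) differed 1.86-fold (log2 change 0.89 ± 0.23 SE, adjusted p = 0.0405 by limma). The call was lost with DESeq2 (adjusted p = 0.0683), with no filter (0.0794) and without control replicate 2 or without the first or the second Lats1/2 KO library (0.109, 0.108 and 0.149). T cells are known to express Ephb6, and among 9 lymphocyte markers 6 were tested, 1 fell and 0 rose. The 9 summed to 13.5 to 14.0 RPM in the controls and 8.95 to 10.6 in the knockouts, a fall that came from Cd4 (9.67 and 10.1 against 4.0 and 4.14 RPM). The other 8 summed to 3.81 and 3.94 RPM in the controls and 4.95 and 6.46 in the knockouts. Cd3e had 0.288 and 0.199 RPM in the controls and Cd3g 0.503 and 0.477, far below Cd4. Which cells gave the Cd4 reads was not tested. The median log2 change of the 6 was 0.35, and the 5 that did not pass lay between -0.20 and 0.94. The part of lymphocytes in the Ephb6 rise was not tested.

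Both EphA receptors among the 9 genes rose. Epha2 (ENSMUSG00000006445, chromosome 4, 141301240 to 141329384, plus strand) encodes an epithelial receptor that binds ephrin-A1 and takes part in cell junctions and migration. It had 1144 and 1320 normalized counts in the controls and 3189 and 2486 in the knockouts. Lats1/2 KO replicate 1 was the higher of its group, and both stood above the controls by more than the spread within either group. The means were 1232 ± 125 and 2838 ± 497 (SD, n = 2 each), a 2.29-fold rise and the largest among the 9 genes (log2 change 1.20 ± 0.14 SE, adjusted p = 0.00378 by limma).

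Epha1 (ENSMUSG00000029859, chromosome 6, 42358487 to 42373268, minus strand), another receptor of epithelia, had 2025 and 2105 normalized counts in the controls and 2711 and 2890 in the knockouts. The replicates of each group lay close together. The means were 2065 ± 57.1 and 2800 ± 126 (SD, n = 2 each), a 1.36-fold rise (log2 change 0.44 ± 0.07 SE, adjusted p = 0.00877 by limma). Without Lats1/2 KO replicate 2 the adjusted p was 0.0661. In GENCODE, 236 of the 3928 exon bases of Epha1 overlap exons of Zyx on the opposite strand, and Zyx had 695 and 685 recovered reads in the controls and 1177 and 1094 in the knockouts. Whether the counting used strand is not given in the sources used here, so the reads of that stretch cannot be assigned to either gene, and their part in the Epha1 difference was not tested.

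Among the ligands Efnb2 rose, and Efnb1 and Efna1 did not pass the test. Efnb2 (ENSMUSG00000001300, chromosome 8, 8617434 to 8661242, minus strand) encodes ephrin-B2, a transmembrane ligand of EphB2, EphB3 and EphB4. It had 704 and 627 normalized counts in the controls and 1550 and 1378 in the knockouts. The lowest Lats1/2 KO value was far above the highest control value. The means were 666 ± 54.0 and 1464 ± 121 (SD, n = 2 each), a 2.20-fold rise (log2 change 1.14 ± 0.10 SE). Its adjusted p of 0.00171 by limma was the smallest of the 9 genes. The calls of Epha2 and Efnb2 held under each of the 12 other settings, with adjusted p of at most 0.0137 and 0.0105.

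Efnb1 (ENSMUSG00000031217, chromosome X, 99136130 to 99148991, plus strand) encodes ephrin-B1, the ligand most studied in crypt and villus sorting. Its normalized counts were 667 and 615 in the controls and 752 and 1026 in the knockouts. The Lats1/2 KO libraries differed from each other by more than the lower of them differed from the controls. The log2 change was 0.46, its 95% interval ran from 0.06 to 0.85, and limma gave an adjusted p of 0.0854. The value depended on a library, since the log2 change was 0.68 (adjusted p = 0.0287) without Lats1/2 KO replicate 1, against 0.23 (0.283) when replicate 2 was left out.

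Efna1 (ENSMUSG00000027954, chromosome 3, 89271733 to 89281142, minus strand) encodes ephrin-A1, a ligand of EphA2 and EphA1. It had 2067 and 2255 normalized counts in the controls and 1529 and 1926 in the knockouts. The gap between the groups was smaller than the distance between the Lats1/2 KO libraries. The log2 change was -0.33, its 95% interval ran from -0.64 to -0.02, and limma gave an adjusted p of 0.102. It was -0.50 (adjusted p = 0.0477) without Lats1/2 KO replicate 2, against -0.16 (0.36) when replicate 1 was left out. Lats1/2 KO replicate 1 thus held the higher Epha2 value and the lower Efna1 and Efnb1 values of its group.

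**Figure D2:**
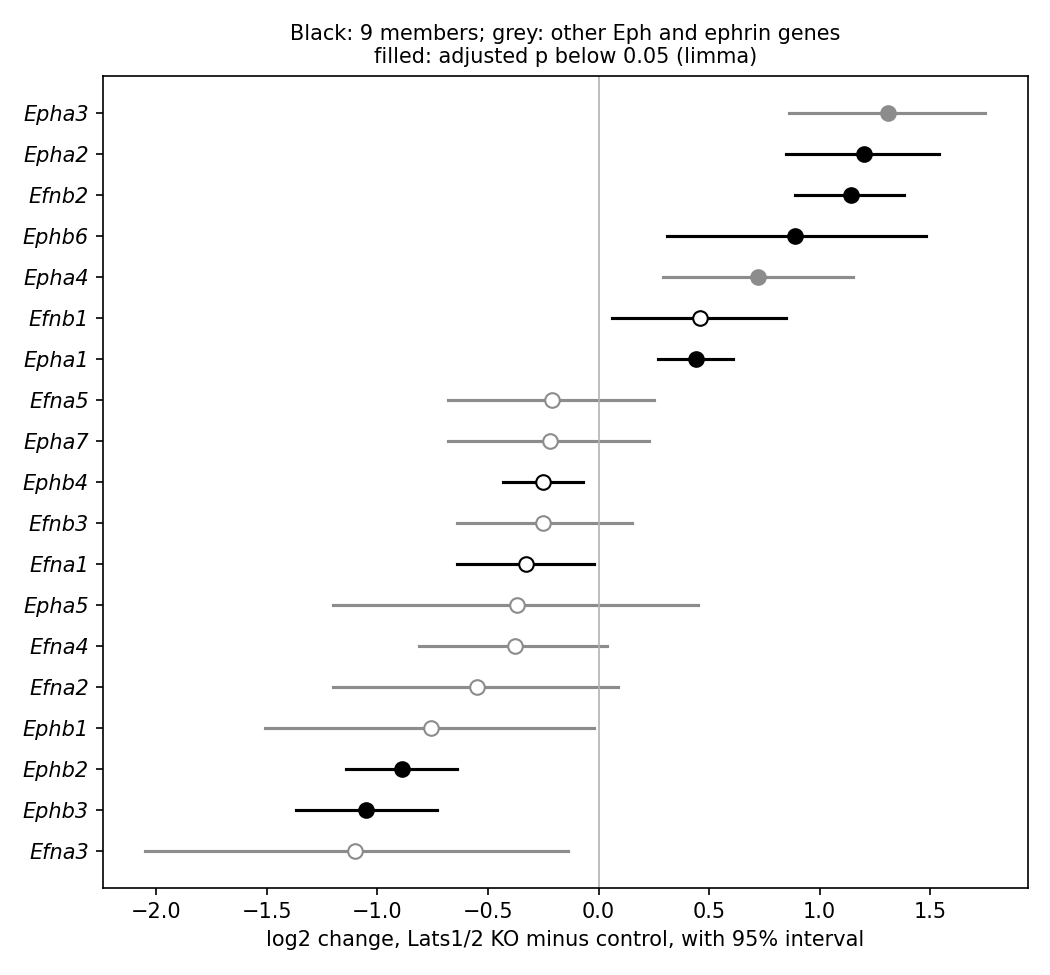
Log2 change (Lats1/2 KO minus control, horizontal axis) with its 95% interval for the 19 tested Eph and ephrin genes, the 9 described here in black and the others in grey; filled points passed an adjusted p of 0.05 by limma. Ephb2 and Ephb3 are the only filled points below 0, and Epha3, Epha2, Efnb2, Ephb6, Epha4 and Epha1 are filled above 0.

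Ratios within a library do not depend on how libraries were scaled. The log2 ratio of Ephb4 to Efnb2, the venous and arterial pair, was 1.09 and 1.14 in the controls and -0.37 and -0.17 in the knockouts, a difference of -1.39 against a pooled SD of 0.10. The ratio of Efnb1 to Efnb2 was -0.08 and -0.03 in the controls and -1.04 and -0.42 in the knockouts. That difference of -0.68 exceeded the pooled SD of 0.31, and the libraries of the groups did not overlap. Its size depended on a library, since it was -0.37 without Lats1/2 KO replicate 1 and -0.99 when replicate 2 was left out. For Ephb4 over Efnb2 the difference ranged from -1.48 to -1.29 without 1 library.

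Further ratios were chosen after the values had been seen. The log2 ratio of Efnb2 to Ephb2 went from -0.89 and -1.26 to 0.97 and 0.93, and that of Epha2 to the ligand gene Efna1 from -0.85 and -0.77 to 1.06 and 0.37. For Epha2 over Epha1 it went from -0.82 and -0.67 to 0.23 and -0.22. In all 3 of these ratios the groups did not overlap. Of 5 tested arterial endothelium markers 1 fell and 0 rose. The 6 listed summed to 20.0 to 22.6 RPM in the controls and 14.8 to 15.8 in the knockouts. The 1 that fell, the Notch ligand gene Dll4, had 8.09 and 10.3 RPM against 4.59 and 5.16. Its log2 change was -0.90 (adjusted p = 0.0162 by limma), and -0.80 without Lats1/2 KO replicate 1, where the call was lost. Without Dll4 the list summed to 11.9 and 12.3 RPM in the controls and 11.2 and 9.64 in the knockouts. The part of arterial cells in the Efnb2 rise was not tested.

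**Figure D3:**
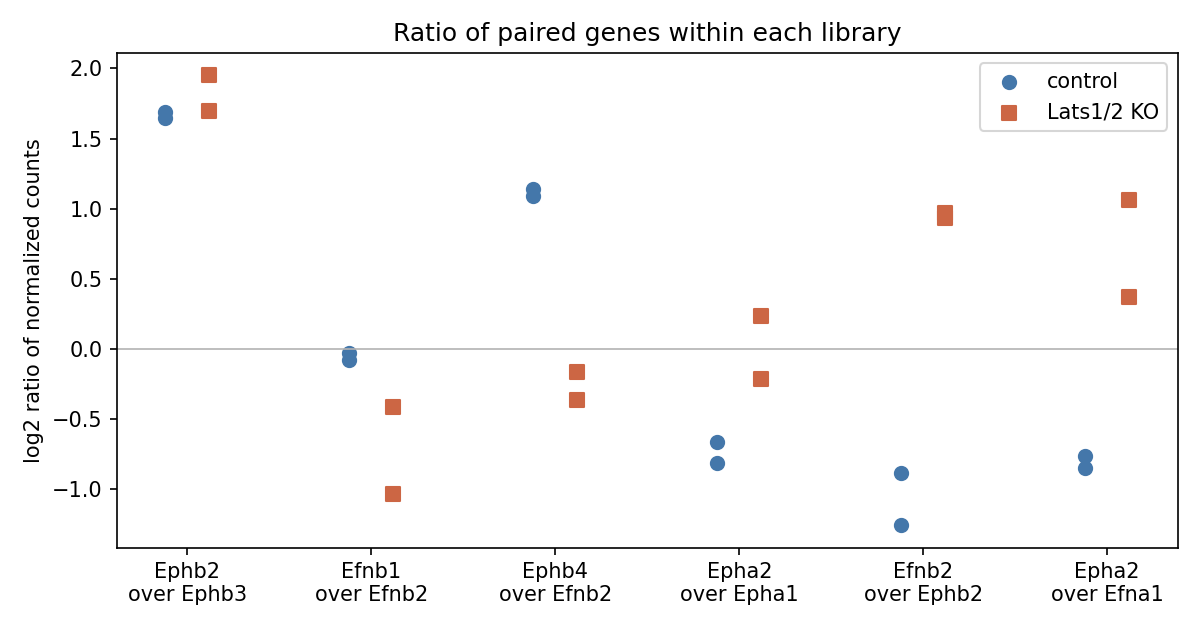
Log2 ratio of the normalized counts of paired genes within each library (vertical axis), with control libraries as circles and Lats1/2 KO libraries as squares. The ratio of Ephb4 to Efnb2 falls from 1.09 and 1.14 to -0.37 and -0.17, while that of Ephb2 to Ephb3 stays between 1.65 and 1.95.

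Levels of different genes were compared as RPKM, the RPM value divided by the exon length in kilobases. That length is the union of all annotated exons of a gene, 12608 bases for Ephb2 and 6855 for Efnb2, and transcripts in this tissue may be shorter. Efna1 was the most abundant of the 22 Eph and ephrin genes in both groups, at 41.1 ± 2.58 in the controls and 32.8 ± 4.53 in the knockouts (SD, n = 2 each). Epha1 came second in both, at 18.3 ± 0.531 and 24.8 ± 0.506 (SD, n = 2 each). In the controls Ephb4 followed at 10.8 ± 0.592 and Epha2 at 9.17 ± 0.941 (SD, n = 2 each), and their library values, 10.4 and 11.2 against 8.50 and 9.83, lay close together. In the Lats1/2 KO libraries Epha2 stood at 24.2 and 18.2, next to Epha1 at 24.4 and 25.2, with Ephb4 at 9.16 and 9.01.

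Efnb2 and Ephb2 lay side by side on this scale in the controls and apart in the knockouts. Ephb2 was at 3.59 and 4.14 in the controls and 2.22 and 1.96 in the knockouts, and Efnb2 at 3.57 and 3.19 against 8.01 and 6.87. Efnb1 was at 6.71 and 6.20 against 7.72 and 10.2, Ephb3 at 2.11 and 2.50 against 1.09 and 1.14, and Ephb6 at 0.639 and 0.443 against 0.973 and 1.02. Summed, Efnb1 and Efnb2 exceeded Ephb2 and Ephb3 by a ratio of 1.80 and 1.41 in the controls and 4.75 and 5.51 in the knockouts. This sum was also chosen after the values had been seen, and in whole tissue it does not show which cells held ligand or receptor. In RPM, with no division by length, Ephb2 and Ephb3 together exceeded Efnb1 and Efnb2 in the controls and lay below them in the knockouts. In the controls Ephb2 had 45.3 and 52.2 RPM and Ephb3 14.0 and 16.6. Efnb1 had 23.2 and 21.4 RPM there and Efnb2 24.5 and 21.8. The order of receptors and ligands in the controls thus depended on the exon length used.

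**Figure D4:**
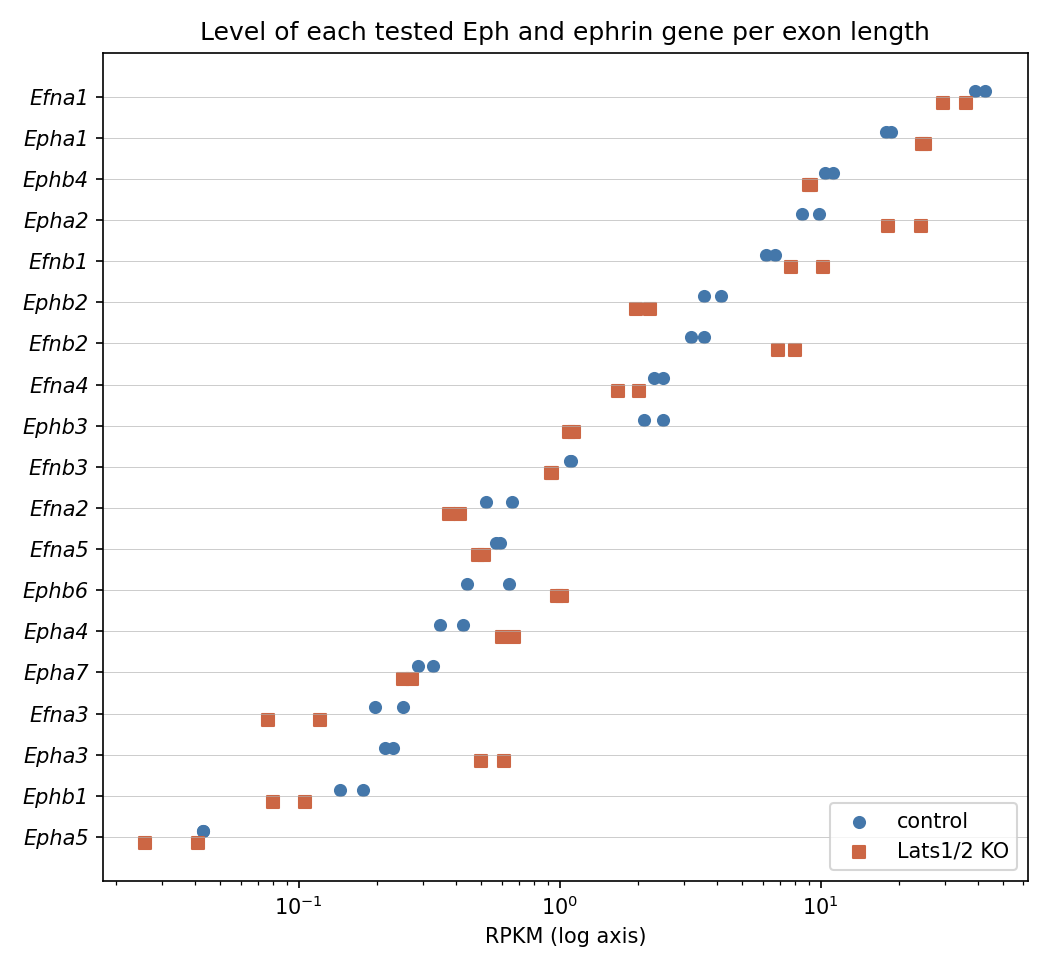
Level as RPKM (log axis) of the 19 tested Eph and ephrin genes, ordered by their control mean, with control libraries as circles and Lats1/2 KO libraries as squares. Efna1 is at the top in both groups, and Efnb2 lies beside Ephb2 in the controls and above it in the knockouts.

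Promoters are shown for Epha2, Efnb2 and Epha1, which rose, and for Ephb2 and Ephb3, which fell. Ephb6 also rose, and its promoter is described below but not shown. As background, LATS kinases inhibit YAP and TAZ, cofactors of the TEAD factors. Each sequence covers 250 bases before to 50 bases after the RefSeq start site on GRCm38.p6, on the strand of the gene, 5′ to 3′. Capitals mark the TEAD core GGAATG and the TCF/LEF motif CTTTGAT or CTTTGAA on either strand.
Epha2 (chr4:141300971-141301270, plus): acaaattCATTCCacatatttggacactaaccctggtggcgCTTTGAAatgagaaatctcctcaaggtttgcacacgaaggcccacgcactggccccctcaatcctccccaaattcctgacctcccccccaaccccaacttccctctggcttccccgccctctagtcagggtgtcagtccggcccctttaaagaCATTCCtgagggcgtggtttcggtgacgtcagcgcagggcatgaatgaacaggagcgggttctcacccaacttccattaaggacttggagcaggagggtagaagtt
Efnb2 (chr8:8661193-8661492, minus): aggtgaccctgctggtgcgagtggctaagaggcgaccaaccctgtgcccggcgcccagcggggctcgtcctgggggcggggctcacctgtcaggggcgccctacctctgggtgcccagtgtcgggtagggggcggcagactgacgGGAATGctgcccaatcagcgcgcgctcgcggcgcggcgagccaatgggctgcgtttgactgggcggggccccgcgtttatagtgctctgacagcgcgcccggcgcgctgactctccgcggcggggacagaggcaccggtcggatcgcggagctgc
Epha1 (chr6:42373219-42373518, minus): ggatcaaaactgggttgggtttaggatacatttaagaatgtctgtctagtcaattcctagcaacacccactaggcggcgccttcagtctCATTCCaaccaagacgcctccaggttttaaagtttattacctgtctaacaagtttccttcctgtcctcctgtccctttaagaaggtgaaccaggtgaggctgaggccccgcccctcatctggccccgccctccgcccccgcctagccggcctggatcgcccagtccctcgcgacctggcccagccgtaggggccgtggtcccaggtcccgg
Ephb2 (chr4:136835963-136836262, minus): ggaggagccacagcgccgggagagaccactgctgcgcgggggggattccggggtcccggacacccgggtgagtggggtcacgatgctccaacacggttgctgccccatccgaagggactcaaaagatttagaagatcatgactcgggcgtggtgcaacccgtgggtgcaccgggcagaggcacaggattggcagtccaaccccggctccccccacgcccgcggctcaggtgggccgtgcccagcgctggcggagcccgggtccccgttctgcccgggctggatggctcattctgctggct
Ephb3 (chr16:21204545-21204844, plus): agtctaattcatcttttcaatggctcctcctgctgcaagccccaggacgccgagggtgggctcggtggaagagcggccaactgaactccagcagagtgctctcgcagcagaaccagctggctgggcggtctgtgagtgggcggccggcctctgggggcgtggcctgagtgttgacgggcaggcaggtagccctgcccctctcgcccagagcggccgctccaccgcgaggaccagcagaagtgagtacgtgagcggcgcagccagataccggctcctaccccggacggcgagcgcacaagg

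The table of promoters matched all 9 genes, with 10 promoters in all. The TEAD core was found in the promoters of 3 genes, Epha2, Efnb2 and Epha1, and 14.7% of all 32851 promoters of this length held it. Epha2 held it at -243 to -238 and at -56 to -51 relative to the start site, as CATTCC, the complement strand of the core. Efnb2 held GGAATG at -105 to -100, and Epha1 held CATTCC at -161 to -156. The promoter of Ephb6, which also rose, held none. The promoters shown for genes that rose are thus only those with the core.

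The TCF/LEF motif, the letters bound by the partners of beta-catenin, was found in the window of Epha2 alone, at -209 to -203, and in 8.65% of all promoters. It did not overlap the TEAD matches there. The windows of Ephb2 and Ephb3 held neither motif. The E-box CACGTG and the AP-1 motif TGACTCA were looked for as well, and 0 of the 9 genes held either, against 7.15% and 5.20% of all promoters. A match is a run of letters and not a measured binding site, and sequence outside these windows was not searched.

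Among the 13 other Eph and ephrin genes, 10 were tested, 2 rose and 0 fell by limma, with a median log2 change of -0.31. The count at an unadjusted p below 0.05 for falls was 2, and with edgeR and DESeq2 0 fell. Epha3, a receptor of mesenchymal and neural cells, had 53.8 and 57.1 normalized counts in the controls and 151 and 127 in the knockouts, a 2.47-fold rise (log2 change 1.31 ± 0.18 SE, adjusted p = 0.00622). Of 9 markers of enteric neurons and glia 1 fell and 0 rose (200.5 to 232 against 115 to 123 RPM). Epha4, a receptor that binds both ligand classes, had 80.7 and 98.3 against 153 and 142, a log2 change of 0.72 with an adjusted p of 0.032. The Epha4 call was lost with DESeq2 (0.0656), with no filter (0.0579) and without control replicate 1 or without the first or the second Lats1/2 KO library (0.0986, 0.13 and 0.0964).

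The 8 that did not pass all had log2 changes below 0. The ligand genes Efna4 and Efnb3 had the highest levels of them per exon length (RPKM of 2.40 and 1.10 in the controls), with 115 and 106 normalized counts against 90.7 and 78.6 for Efna4, and 101 and 101 against 83.3 and 86.7 for Efnb3. Efna3 had 17.6 and 13.7 against 8.33 and 5.42 (log2 change -1.10, adjusted p = 0.089), and Ephb1 29.0 and 35.4 against 15.7 and 21.7 (-0.76, adjusted p = 0.115). Efna2, Efna5, Epha5 and Epha7 had log2 changes of -0.55, -0.21, -0.37 and -0.22. Epha6, Epha8 and Epha10 had 0 to 6 reads in any library and were not tested.

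Partner genes, whose proteins carry Eph and ephrin signals into the cell, passed the test at a share near that of all genes. Of 39 tested 7 rose and 2 fell, leaving 30 that did not pass, and the median log2 change was 0.07. The smallest adjusted p belonged to Pard6b, a polarity protein that binds ephrin-B1, with 1593 and 1853 normalized counts in the controls and 3907 and 3685 in the knockouts (2.21-fold, adjusted p = 0.00141 by limma). Afdn, the junction protein afadin that binds Eph receptors, had 2858 and 2955 against 4665 and 4488 (1.57-fold, adjusted p = 0.00209). Kalrn, an exchange factor for Rac1 that acts after EphB2 in neurons, had 112 and 142 against 339 and 349 (2.72-fold, adjusted p = 0.00304). The other genes that rose were the kinase genes Abl2 and Rock2, the exchange factor gene Tiam1 and the adaptor gene Nck2, and those that fell were the kinase gene Fyn and the adaptor gene Anks1. These 6 were named after their values were seen, with log2 changes of 0.67, 0.41, 1.09, 0.48, -0.90 and -0.25. Without either Lats1/2 KO library 0 partner genes fell, and 6 or 5 rose.

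Lists of genes of the crypt, where Ephb2 and Ephb3 act, were set beside them. Of 14 tested Wnt and beta-catenin targets 5 fell and 2 rose, with a median log2 change of -0.35. Lgr5, the stem cell receptor, had 329 and 325 normalized counts in the controls and 118 and 99.4 in the knockouts. Axin2 and Cd44, a feedback inhibitor of Wnt signalling and a hyaluronan receptor, had log2 changes of -1.39 and -1.26 (adjusted p = 0.00157 and 0.00173 by limma). Ccnd1, the cyclin D1 gene, which is known to lie downstream of EphB2 in crypt progenitors, was among the 2 that rose, with a log2 change of 0.93 (adjusted p = 0.0051), and was named after its value was seen. Tcf7, the other, had 0.53 (adjusted p = 0.0367), and in each fit without 1 library only 1 target rose.

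Of 5 tested Paneth cell genes, the cells that EphB3 positions, 4 fell and 0 rose. The 6 listed summed to 880.5 to 1258 RPM in the controls and 69.5 to 78.6 in the knockouts. Itln1 gave most of the control sum (959 and 609 RPM, log2 change -4.19), followed by Defa24 (266 and 244 RPM). The 2 that did not pass or were not tested summed to 7.3 and 7.28 RPM in the controls and 2.42 and 2.87 in the knockouts. Which cells gave the Itln1 reads was not tested. Defensin genes such as Defa24 (log2 change -3.27, adjusted p = 0.000167 by limma) may share reads with near-identical copies, so their values are uncertain. Of 10 genes of crypt stem and progenitor cells 7 fell and 1 rose, with 859.9 to 979.7 against 215 to 239 RPM. Olfm4 gave most of the control sum (540 and 645 RPM against 18.5 and 11.7), and the ion transporter gene Slc12a2 had 158 and 164 against 85.2 and 78.2 RPM. The log2 changes of Ephb2 and Ephb3 were -0.89 and -1.05. Those of the 10 crypt genes ran from -5.32 to 0.84, with a median of -0.83. The part of fewer crypt cells in the declines was not tested. Of 12 villus enterocyte genes 5 fell and 2 rose, with a median of 0.01.

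**Figure D5:**
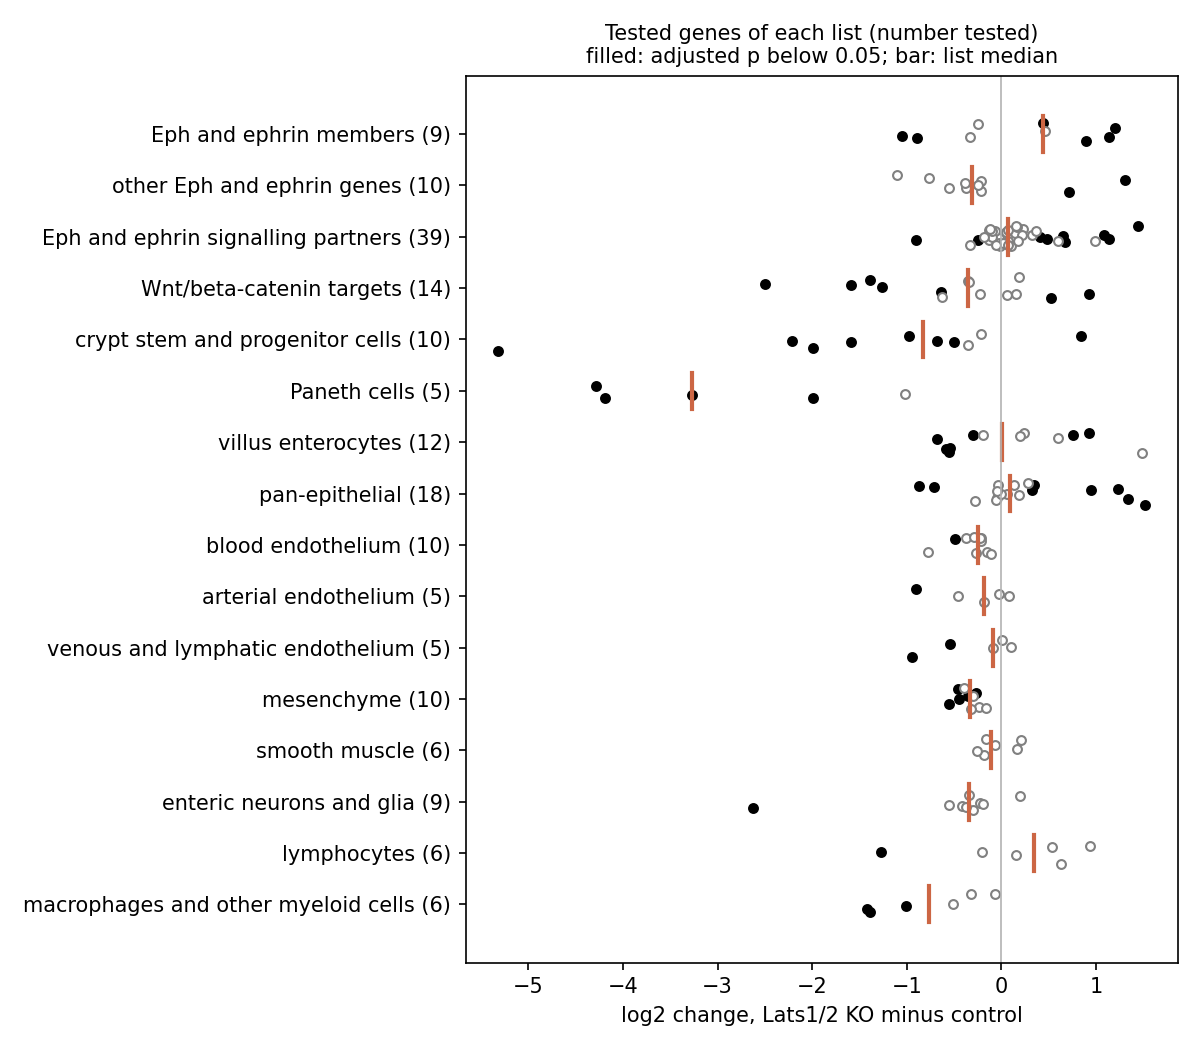
Log2 change (Lats1/2 KO minus control) of the tested genes of each list, with the number tested in brackets; filled points passed an adjusted p of 0.05 by limma and bars give list medians. The 9 ephrin and Eph receptor genes have a median of 0.44, the signalling partners 0.07, the Wnt targets -0.35 and the Paneth cell genes -3.27.

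The genes most like Epha2 and Ephb3, the members with the largest called rise and fall, were sought among 8043 tested genes at or above the median level of 413 normalized counts. Likeness was the root mean square difference of log2 values over the 4 libraries, each gene centred on its own mean. Closest to Epha2 were Dse, with a difference of 0.025, Sult2b1 (0.081) and Cdkn1a (0.087). Dse had 269 and 313 normalized counts in the controls and 752 and 565 in the knockouts, and so shared the higher value of Lats1/2 KO replicate 1. Closest to Ephb3 were Hsd17b13 (0.014), Tenm3 (0.019) and Slc16a12 (0.031), with log2 changes of -1.04, -1.07 and -1.0. With 4 libraries in 2 groups many genes share such a pattern.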

How the data were processed

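RNA-seq of whole small intestine was analysed in 2 control and 2 Lats1/2 KO libraries. The submitters' processing notes name STAR, featureCounts, DESeq2 and the build GRCm38, with no version, annotation or strand setting (not given in the sources used here). Per-library values, a deposited signal, are gene counts divided by 1 factor per library, by the authors, per the file headers and the values. Whole reads were recovered for 100% of values within 0.001 reads. The deposited log2 fold change, linear fold ratio and adjusted p-value are the authors' own.

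Column names give the group and not the sample, so replicate numbers are names in column order. The labels do not say that samples came from separate animals, so p-values measure only the spread between these samples, which may be technical. Differences were fitted to log2(normalized count + 1) by limma 3.58.1 (R 4.3.3, mean-variance trend) over the 16415 genes reaching 10 in at least 2 libraries, on 2 residual and 3.53 prior degrees of freedom. Fold changes on this scale understate those of low genes, and the median SE was 0.35 in the lowest of 5 equal level groups of genes and 0.07 in the highest. The alternatives were pseudocounts of 0.5 and 5, no filter or a filter of 50, scaling by library size, edgeR 4.0.16, DESeq2 1.42.0 and limma-voom on recovered reads, and leaving out each library.

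Exon lengths and positions are from GENCODE M21 (GRCm38). The members, lists and motifs were chosen with earlier results of these data known. Named were the 9 members, the 13 other family genes, up to 3 genes per list with the smallest adjusted p (for some lists fewer are printed), the 3 genes most like the members with the largest called rise and fall, and genes marked as named after their values were seen. Pick1, a signalling partner with 2 rows, was taken from the row with the higher mean.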

Additional observations from a re-analysis of the deposited data

How the results depend on the processing

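The 12 alternatives were applied to the log2 change of each member, the counts of called genes and the ratios between members fixed at the start. None of these changed direction. The calls of Ephb2, Ephb3, Epha2 and Efnb2 held under all 12. Without 1 library the difference in log2 ratio ranged from -0.99 to -0.37 for Efnb1 over Efnb2, from 0.04 to 0.29 for Ephb2 over Ephb3 and from -1.48 to -1.29 for Ephb4 over Efnb2. Ephb4 passed the threshold at a log2 change of -0.25 with edgeR and with the filter of 50, and ranged from -0.31 to -0.19 when 1 library was left out. Ephb6 did not pass with no filter (0.89) or with DESeq2 (0.87) and ranged from 0.63 to 1.16. Without 1 library, Epha1 ranged from 0.39 to 0.48, Efna1 from -0.50 to -0.16 and Efnb1 from 0.23 to 0.68. Members called higher numbered 2 to 4 in those fits, other Eph and ephrin genes called higher 1 to 2, signalling partners called lower 0 to 1, and Wnt targets called higher 1 in each. With no filter and with DESeq2, 1 other Eph and ephrin gene rose and 1 Wnt target rose, while 0 and 1 signalling partners fell. With no filter 29011 genes were tested against 16415, and each fit without a library had fewer samples; other causes were not tested. Scaling by library size moved the median log2 change of all genes from -0.001 to 0.

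No paired analysis was possible because the column names carry none of the replicate numbers in the labels and a replicate block had nothing to pair. Depth limits Epha6, Epha8 and Epha10, which had at most 6 reads in a library.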
